A study of Mus musculus with 6 samples.

Results

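A set of 10 genes that mark the pericentral zone of the liver lobule or respond there to Wnt signaling was followed in liver of GHRH-KO mice and normal littermates: Glul, Cyp2e1, Cyp1a2, Oat, Slc1a2, Rhbg, Lect2, Axin2, Tbx3 and Lgr5. They were chosen by name, 10 of 18193 genes for which the arrays carry a probe set assigned to only that gene, and every such probe set is shown, 21 in all. The RNA was from whole liver of males, 3 of them GHRH-KO and 3 normal littermates called control below, and each animal had its own Affymetrix Mouse Genome array. All 6 animals carried a C57BL6 and 129SV mixed background, had gone without food for 6 to 8 h and, by the methods, were aged 10 months. The mutation is a targeted disruption of Ghrh in the whole animal, so the liver sees the loss of the hormone axis and not the loss of a liver gene. Values are RMA values, which are background-corrected, normalized between arrays and given on the log2 scale. A probe set reports relative change only, and its level is not set against that of another probe set.

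Hepatocytes differ along the path of the blood from the portal vein to the central vein. Endothelial cells of the central vein release Wnt ligands and R-spondin, and beta-catenin with its TCF and LEF partners then switches on a set of genes in the hepatocytes next to the vein. These cells make glutamine from ammonia that escaped the urea cycle upstream, and they hold much of the cytochrome P450 that oxidizes ethanol, drugs and arylamines. Homogenized liver averages over both zones, so neither the position of a transcript nor its confinement to a zone was measured. A smaller number of pericentral cells and less RNA in each of them cannot be told apart in such samples.

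The promoters of the genes are shown first because TCF and LEF factors read short DNA letters near their targets. RefSeq (GRCm38.p6) gave a promoter for 7 of the 10 genes, and the 250 bases before the start of transcription were searched on both strands for CTTTG followed by AA, AT, TA or TT. Printed are 4 windows, those of the 3 genes whose groups did not overlap (Glul, Oat and Lect2) and that of Cyp2e1, whose log2 fold change was 0.00. They run 5′ to 3′ along the gene in lower case, with the TCF/LEF letters in capitals.
Glul, chr1:153899679-153899928, plus strand: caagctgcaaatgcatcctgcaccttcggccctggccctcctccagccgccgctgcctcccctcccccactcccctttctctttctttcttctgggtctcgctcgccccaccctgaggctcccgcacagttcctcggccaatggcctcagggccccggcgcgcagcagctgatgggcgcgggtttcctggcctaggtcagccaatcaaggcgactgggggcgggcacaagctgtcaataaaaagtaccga
Oat, chr7:132576399-132576648, minus strand: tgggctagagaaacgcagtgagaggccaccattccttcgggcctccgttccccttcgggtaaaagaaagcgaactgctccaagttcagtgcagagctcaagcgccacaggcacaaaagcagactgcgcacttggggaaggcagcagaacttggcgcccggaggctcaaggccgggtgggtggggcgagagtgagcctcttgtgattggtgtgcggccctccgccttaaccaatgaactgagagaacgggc
Lect2, chr13:56548539-56548788, minus strand: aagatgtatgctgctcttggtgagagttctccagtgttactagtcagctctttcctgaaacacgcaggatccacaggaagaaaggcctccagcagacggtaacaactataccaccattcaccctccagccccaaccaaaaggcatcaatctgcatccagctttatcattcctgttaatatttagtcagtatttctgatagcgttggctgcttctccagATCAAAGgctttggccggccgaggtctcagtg
Cyp2e1, chr7:140763569-140763818, plus strand: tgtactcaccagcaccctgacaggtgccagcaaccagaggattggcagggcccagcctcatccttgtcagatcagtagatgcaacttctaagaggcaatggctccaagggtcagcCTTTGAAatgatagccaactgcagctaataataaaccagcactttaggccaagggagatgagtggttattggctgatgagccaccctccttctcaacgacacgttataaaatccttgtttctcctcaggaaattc

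The letters occurred in 4 of the 7 windows, those of Cyp2e1, Cyp1a2, Slc1a2 and Lect2, and in 14.8% of all 32851 promoter windows of the same length. In Lect2 they begin 32 bases before the start, in Cyp2e1 135 bases, in Slc1a2 207 bases and in Cyp1a2 244 bases before it. The windows of Glul, Oat and Axin2 do not hold them. Among other pericentral genes 3 of 21 windows held them, and among periportal genes 2 of 15. The sense-strand letters TATAAA were found 31 bases before the start of Cyp2e1 and 29 bases before that of Cyp1a2, and in 7.6% of all windows. These matches describe letters in a short window and say nothing of binding or of distant enhancers. The groups of Lect2 did not overlap and its window holds the letters, whereas Glul and Oat did not overlap and their windows lack them.

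The disrupted gene does not check the genotype labels, since Ghrh read 4.414 to 4.747 in control arrays and 4.403 to 4.572 in GHRH-KO arrays, under the intensity filter. One array stood apart in RNA quality. The array's control probe sets for Gapdh read the 3′ end of the transcript above the 5′ end by 0.149 to 0.675 (log2) in 5 arrays and by 5.272 in GHRH-KO replicate 5, and those for beta-actin by 0.878 to 1.314 and by 2.508. Log2 fold changes without GHRH-KO replicate 5 are therefore given for each of the 10 genes, and for another named gene where leaving it out moved the value by over 1.5 times and by over 0.1. The tissue label was checked against its markers. All 7 hepatocyte markers tested, Alb and Ttr among them, were read on every array, with a mean over the list of 13.95 to 14.01 in control and 13.95 to 14.08 in GHRH-KO arrays.

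**Figure D1:**
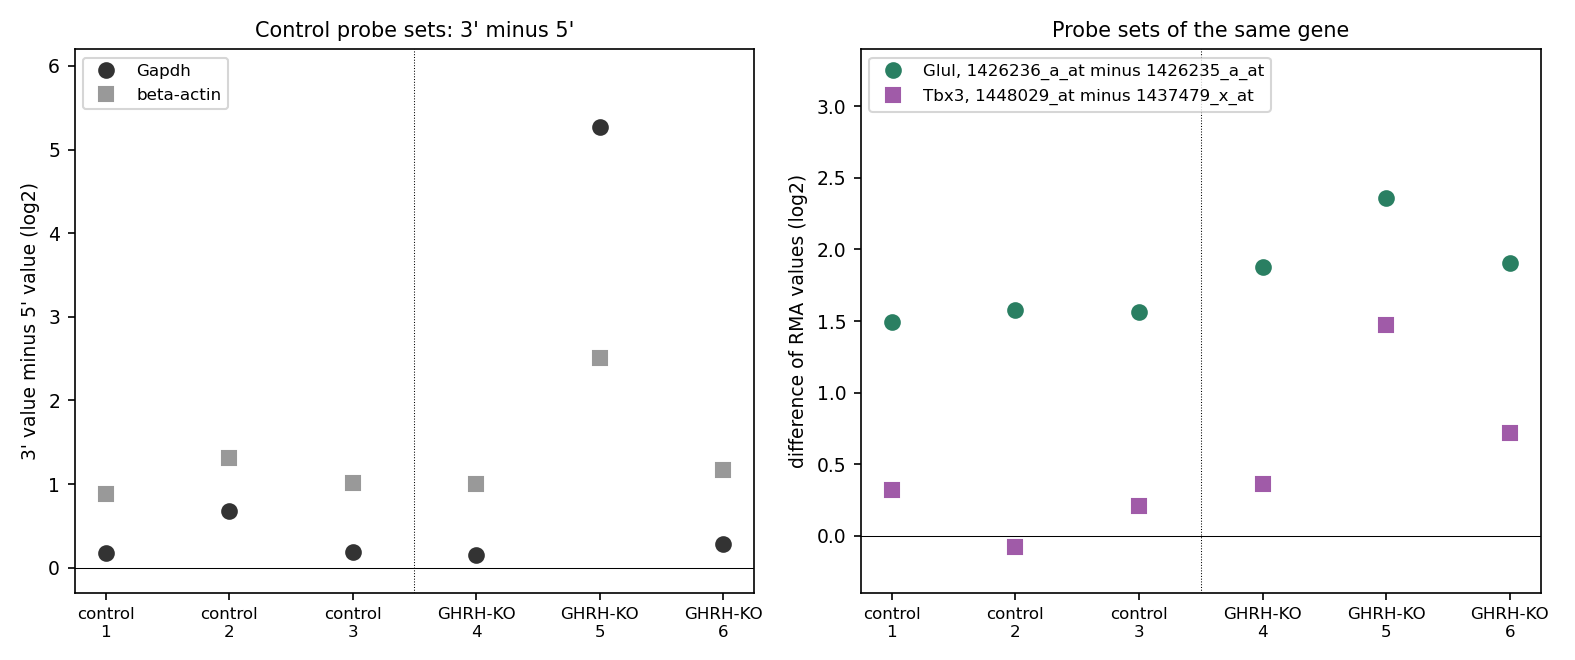
Left, 3′ value minus 5′ value (log2) of the Gapdh and beta-actin control probe sets on each of the 6 arrays; right, the difference (log2) between probe sets of Glul and of Tbx3 on the same arrays, controls left of the dotted line. GHRH-KO replicate 5 lies highest on both sides, at 5.272 for Gapdh, 2.508 for beta-actin, 2.36 for Glul and 1.47 for Tbx3.

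None of the 10 genes was called as different in GHRH-KO liver. By the probe set with the highest mean, 6 genes had a log2 fold change above 0 and 4 below 0, from -0.64 for Tbx3 to 0.96 for Rhbg, with a median of 0.17 against 0.00 over all 12469 genes tested. A gene was called at an adjusted p under 0.05 (limma, Benjamini-Hochberg over all probe sets past an intensity filter) and a fold change above 1.5 or below 0.67, and 0 of 10 genes passed, where 0.786% of all genes were called higher, 0.970% lower and 1.76% in either direction. At an unadjusted p under 0.05, 3 of 10 were higher (Glul, Oat and Rhbg) and 0 lower, beside 9.15% and 10.1% of all genes. In 3 of 10 (Glul, Oat and Lect2) the GHRH-KO values lay wholly above the control values and in 0 wholly below, beside 12.7% and 15.7% of all genes, or 28.4% together. With 10 genes, counts of this size place the group only loosely against that background. The smallest adjusted p among the 10 was 0.145, and with an intensity trend or with array weights in limma the count of called genes was again 0. With 3 arrays a group, an exact permutation test of a single gene cannot go below a two-sided p of 0.10.

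**Figure D2:**
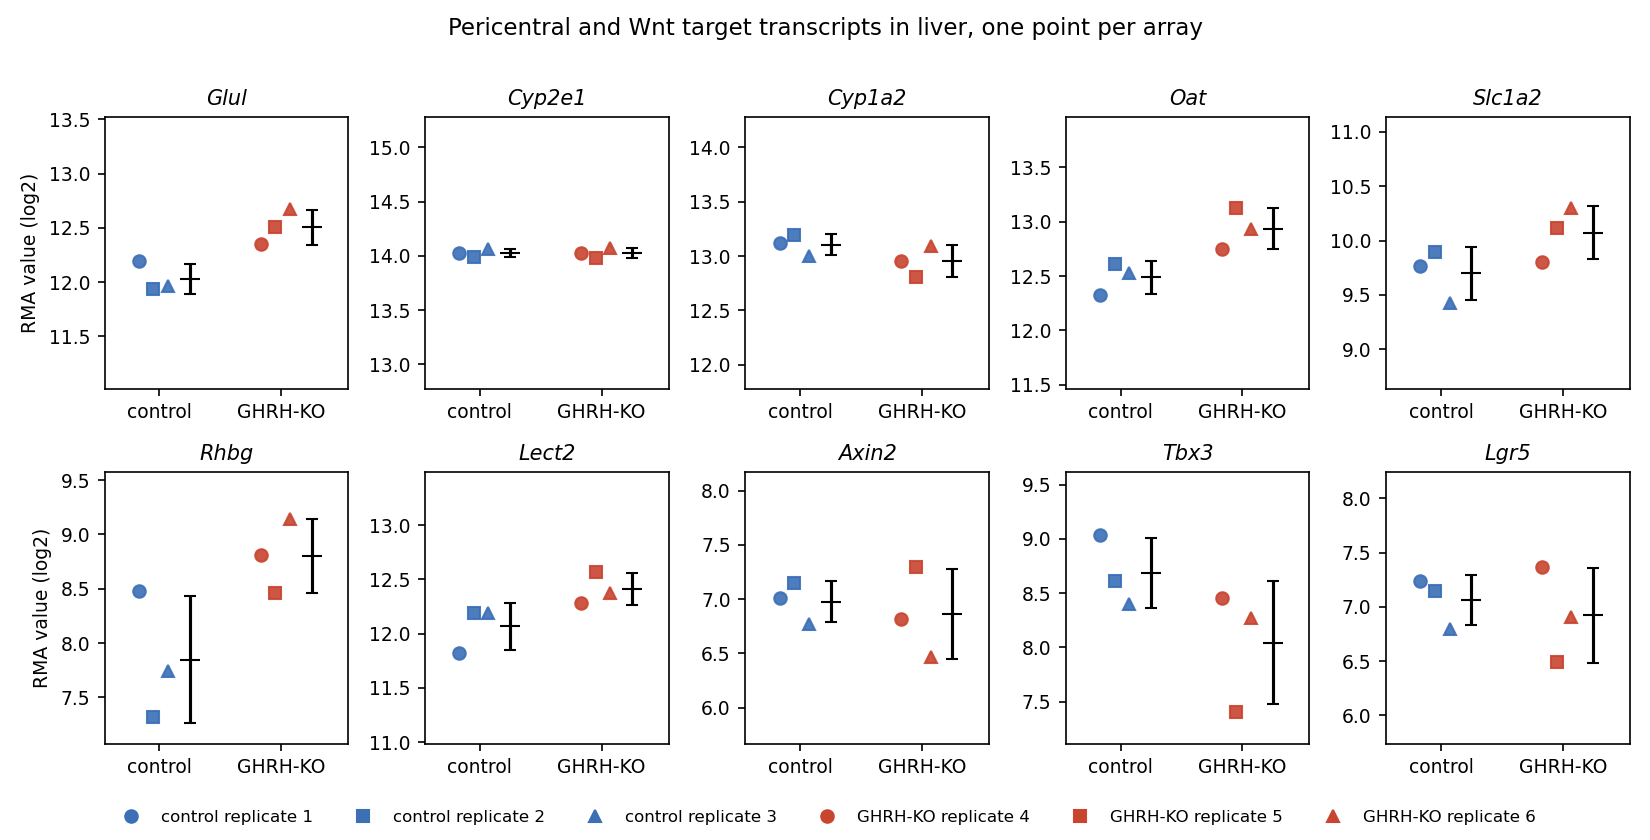
RMA values (log2) of the 10 genes on each array, by the probe set with the highest mean, group means and SDs drawn in black (n = 3); every panel spans the same log2 range. GHRH-KO points lie wholly above control points for Glul, Oat and Lect2, nearly so for Rhbg, while Cyp2e1 lies at 13.98 to 14.07 on all 6 arrays.

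Glul, Oat, Rhbg and Slc1a2, the members that handle glutamine, ornithine, ammonia and glutamate, had log2 fold changes above 0 by the probe set with the highest mean, and none was called. Glul encodes glutamine synthetase, the classic mark of the hepatocytes that line the central vein. Its probe set with the highest mean read 12.19, 11.93 and 11.96 in the controls, replicates 1 to 3 in order here and below, and 12.35, 12.50 and 12.67 in the GHRH-KO mice, replicates 4 to 6 in order. Every GHRH-KO array was above every control array, by a log2 fold change of 0.48 (SE 0.14, 95% interval 0.16 to 0.79, limma adjusted p = 0.145), or 1.39-fold. Without GHRH-KO replicate 5 the log2 fold change was again 0.48, and it ran from 0.39 to 0.56 with any 1 array left out.

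The other Glul probe set did not show that difference. It read 10.70, 10.36 and 10.40 in controls and 10.47, 10.14 and 10.76 in GHRH-KO mice, so the groups overlapped and the log2 fold change was -0.03 (SE 0.19, limma adjusted p = 0.952), or 0.13 without GHRH-KO replicate 5. The first probe set minus the second gave 1.54 ± 0.05 in controls and 2.05 ± 0.27 in GHRH-KO mice (log2, SD, n = 3, two-sided exact permutation p = 0.10, the smallest possible). The difference between genotypes was 0.50, and 0.35 without GHRH-KO replicate 5, which gave 2.36 and has the large 3′ excess. Which parts of the transcript the probes read was not analysed here, and the part of RNA quality in this gap was not tested. The higher value of Glul therefore rests on 1 of its 2 probe sets.

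Oat encodes ornithine aminotransferase, which turns ornithine toward glutamate in the same cells. It read 12.32, 12.62 and 12.53 in controls and 12.75, 13.13 and 12.93 in GHRH-KO mice. All GHRH-KO values were above all control values, with a log2 fold change of 0.45 (SE 0.14, 95% interval 0.11 to 0.79, limma adjusted p = 0.177), and 0.35 without GHRH-KO replicate 5, the highest array.

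Rhbg, a membrane channel for ammonia, had the largest log2 fold change of the 10 genes by the probe set with the highest mean, with a wide spread. It read 8.475, 7.32 and 7.74 in controls and 8.81, 8.46 and 9.14 in GHRH-KO mice. Control replicate 1 lay just above GHRH-KO replicate 5, so the groups overlapped by 1 array. The log2 fold change was 0.96 (SE 0.31, 95% interval 0.23 to 1.68, limma adjusted p = 0.179), or 1.94-fold. It was 1.13 without GHRH-KO replicate 5, 1.27 without control replicate 1 (adjusted p = 0.0895) and ran from 0.70 to 1.27 with any 1 array left out.

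Control replicate 1 also carried more signal of cells other than hepatocytes. The mean over the 10 Kupffer cell or macrophage markers was 9.19 on that array and 7.81 and 7.80 in the other controls, and 9.20, 7.68 and 8.56 in the GHRH-KO mice. For the 8 stellate cell or fibroblast markers it was 8.58 on control replicate 1, 7.80 and 7.87 in the other controls and 8.23 to 8.69 in GHRH-KO mice. The 5 genes closest to Rhbg over the 6 arrays, by root mean square distance between centred profiles, were Aldh1b1 (0.13), Fgl2 (0.14), Klf6 (0.16), Vim (0.17) and Cxcl10 (0.18). They were picked for that likeness, so their levels on any 1 array are no separate evidence. The part of these cells in the Rhbg values was not tested.

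Slc1a2 encodes a high-affinity glutamate transporter of the pericentral hepatocyte membrane, and all 5 of its probe sets pointed upward by small amounts. The one with the highest mean read 9.77, 9.89 and 9.43 in controls and 9.81, 10.12 and 10.30 in GHRH-KO mice. The groups overlapped at GHRH-KO replicate 4, and the log2 fold change was 0.38 (SE 0.18, 95% interval -0.04 to 0.80, limma adjusted p = 0.318), or 0.35 without GHRH-KO replicate 5. The other probe sets had log2 fold changes of 0.07 to 0.24 with adjusted p from 0.376 to 0.823, and the one at 0.23 gave 0.07 without GHRH-KO replicate 5. In the one with the lowest mean the GHRH-KO values of 5.02, 5.01 and 5.05 lay above the control values of 4.74, 4.82 and 4.93. That probe set is near the lowest level tested, a mean of 4.64.

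Cyp2e1 and Cyp1a2, the P450 genes among the 10, differed by little. Cyp2e1 oxidizes ethanol and acetaminophen and is among the abundant transcripts of pericentral hepatocytes. It read 14.03, 13.99 and 14.06 in controls and 14.03, 13.98 and 14.07 in GHRH-KO mice. The log2 fold change was 0.00 (SE 0.10, limma adjusted p = 0.991), or 0.03 without GHRH-KO replicate 5, and its 95% interval of -0.24 to 0.24 leaves room for a fold change between 0.848 and 1.18. Very bright probe sets can lie near the top of the array's range, here 14.7, where differences are compressed.

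Cyp1a2, which oxidizes arylamines and caffeine and is induced through the Ah receptor, read 13.12, 13.19 and 13.00 in controls and 12.96, 12.81 and 13.10 in GHRH-KO mice. The groups overlapped and the log2 fold change was -0.15 (SE 0.12, 95% interval -0.44 to 0.14, limma adjusted p = 0.547), or -0.08 without GHRH-KO replicate 5. Ahr, which encodes that receptor, gave -0.51 (adjusted p = 0.252), with every GHRH-KO value below every control value. Neither gene was called.

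Lect2 encodes a secreted hepatocyte protein and a target of beta-catenin in liver. It read 11.82, 12.19 and 12.19 in controls and 12.28, 12.57 and 12.38 in GHRH-KO mice. The groups did not overlap, though the gap between the nearest arrays was under 0.1, and the log2 fold change was 0.34 (SE 0.15, 95% interval -0.01 to 0.69, limma adjusted p = 0.288). It was 0.26 without GHRH-KO replicate 5.

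Axin2 and Lgr5, which report Wnt signaling most directly, had log2 fold changes just below 0 and were not called. Axin2 encodes a scaffold of the beta-catenin destruction complex and is a feedback target in most tissues, and Lgr5 encodes an R-spondin receptor. Axin2 read 7.01, 7.15 and 6.77 in controls and 6.82, 7.30 and 6.47 in GHRH-KO mice, with a log2 fold change of -0.12 (SE 0.22, 95% interval -0.63 to 0.40, limma adjusted p = 0.811). GHRH-KO replicate 5 was the highest of the 6 arrays and replicate 6 the lowest, so the value became -0.33 without replicate 5 and 0.08 without replicate 6. The other Axin2 probe set lay at 3.39 to 3.64, under the intensity filter.

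Lgr5 read 7.24, 7.14 and 6.80 in controls and 7.37, 6.49 and 6.91 in GHRH-KO mice. Its lowest and its highest value were both in GHRH-KO mice, and the log2 fold change was -0.14 (SE 0.24, 95% interval -0.69 to 0.41, limma adjusted p = 0.783), or 0.08 without GHRH-KO replicate 5. The second Lgr5 probe set, at 4.55 to 4.92, gave -0.12 (adjusted p = 0.651). The intervals of Axin2 and Lgr5 leave room for a change in either direction.

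Tbx3, a T-box transcription factor that follows beta-catenin in liver cells, was the lowest of the group, and the array with the 3′ excess weighed most on it. Its probe set with the highest mean read 9.04, 8.61 and 8.40 in controls and 8.46, 7.40 and 8.27 in GHRH-KO mice. The log2 fold change was -0.64 (SE 0.30, 95% interval -1.34 to 0.06, limma adjusted p = 0.309), and -0.32 without GHRH-KO replicate 5, by far the lowest array. A second Tbx3 probe set read 8.72, 8.70 and 8.20 in controls and 8.10, 5.93 and 7.56 in GHRH-KO mice. There every GHRH-KO value was below every control value, by -1.34 (SE 0.51, limma adjusted p = 0.236), and by -0.71 without replicate 5 (adjusted p = 0.232). The name of this probe set marks it as able to bind other transcripts.

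The gap between these Tbx3 probe sets was 0.32, -0.08 and 0.20 in controls and 0.36, 1.47 and 0.72 in GHRH-KO mice. It was largest in GHRH-KO replicate 5, as was the gap in Glul. The gap between the first and the second probe set of Slc1a2 did not stand out on that array, at 1.33 against 1.23 to 1.85 on the others, and differed by 0.15 between genotypes (two-sided exact permutation p = 0.50). The other 3 Tbx3 probe sets were under the intensity filter, and of these 1 had a log2 fold change of -0.50 and the others 0.03 and -0.02. The part of RNA quality in the Tbx3 values was not tested.

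**Figure D3:**
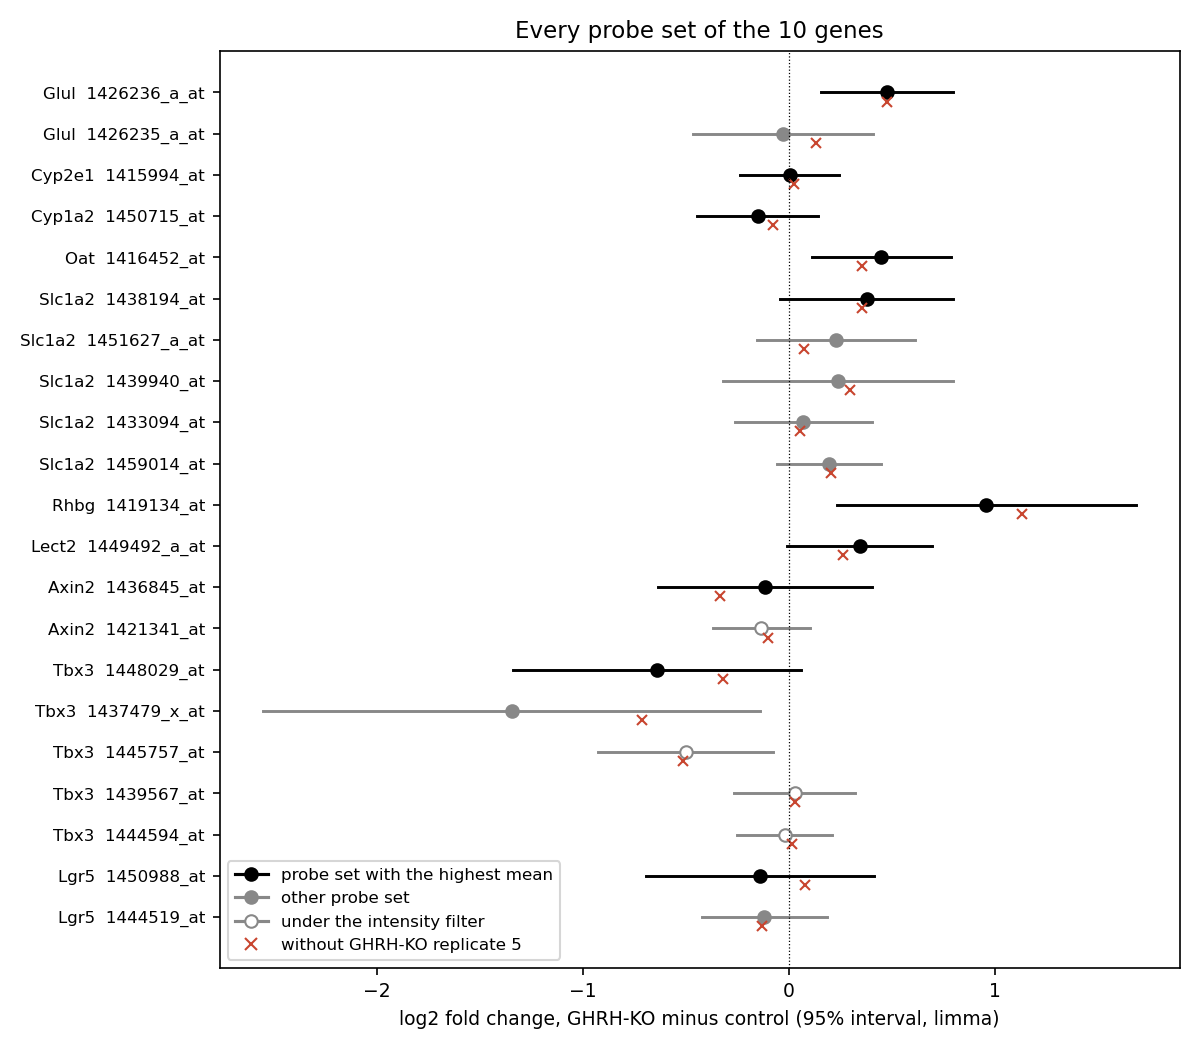
Log2 fold change (GHRH-KO minus control) of all 21 probe sets of the 10 genes, with the 95% interval from limma; black marks the probe set with the highest mean, open circles those under the intensity filter, and crosses the value without GHRH-KO replicate 5. Intervals of the first Glul probe set, Oat and Rhbg lie above 0 and those of a Tbx3 probe set at -1.34 and another at -0.50 below 0, and leaving out replicate 5 moves the former to -0.71.

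Among genes of the Wnt pathway, 1 receptor was called. Fzd7, a Frizzled receptor for Wnt ligands, read 8.50, 8.45 and 8.51 in controls and 7.54, 7.45 and 7.38 in GHRH-KO mice. Its log2 fold change was -1.03 (SE 0.11, limma adjusted p = 0.00664), with groups far apart, and was called under every alternative in which it was tested, with adjusted p from 0.00175 to 0.0451. The other Frizzled genes with the largest differences lay on the upper side. Fzd1 read 8.35, 7.67 and 8.27 in controls and 8.83, 9.10 and 9.07 in GHRH-KO mice (log2 fold change 0.91, adjusted p = 0.0843), Fzd4 differed by 0.65 (adjusted p = 0.107) and Fzd6 by 0.51 (adjusted p = 0.152), each with GHRH-KO values wholly above control values. Of 11 receptors tested, 0 were called higher and 1 lower, beside 0.786% and 0.970% of all genes. The unadjusted p was under 0.05 for 3 higher and 1 lower, and the median log2 fold change was 0.18. GHRH-KO values lay wholly above control values in 3 and wholly below in 2 receptors, beside 12.7% and 15.7% of all genes. Those below were Fzd7 and Lrp5, the latter at -0.37 (adjusted p = 0.284).

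The ligands were dim on these arrays. Of 12 Wnt and R-spondin genes, 6 were under the intensity filter and 0 of the 6 tested were called (unadjusted p under 0.05 for 1 higher and 1 lower). Rspo3 and Wnt2, which the central vein and sinusoidal endothelium supplies, had log2 fold changes of 0.56 (adjusted p = 0.242) and 0.39 (adjusted p = 0.293) with overlapping groups, and Wnt2 gave 0.25 without GHRH-KO replicate 5. Wnt9b, another endothelial ligand of the zone, differed by -0.06. Wnt5b gave -0.46 (adjusted p = 0.229), and Wnt5a, under the filter, gave -0.79 (adjusted p = 0.0981 from limma with no filter), with GHRH-KO values of 4.17 to 4.26 below the control values of 4.61 to 5.23. Of 11 central vein and liver endothelial genes tested 0 were called (unadjusted p under 0.05 for 2 higher and 0 lower). Their median of 0.19 became 0.00 without control replicate 2. This list shares Wnt2, Wnt9b and Rspo3 with the ligands, so Rspo3 is counted as higher in both. Kit and Thbd had the largest differences, 0.75 and 0.60, and 0.49 and 0.30 without GHRH-KO replicate 5.

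Inside the cell, 0 of 13 transducers and destruction complex genes tested were called (unadjusted p under 0.05 for 2 higher and 0 lower). Ctnnb1, which encodes beta-catenin, differed by -0.09. Apc, a part of the complex that degrades it, gave 0.35 (adjusted p = 0.242) and the kinase gene Csnk1a1 0.32 (adjusted p = 0.218), both without overlap, while Pygo2 gave -0.30 with GHRH-KO values wholly below control values. Gsk3b gave -0.32 with all arrays and -0.02 without GHRH-KO replicate 5. Of the TCF and LEF genes, Tcf7l2, the main one of adult liver, read 8.33, 8.33 and 8.31 in controls and 8.10, 7.12 and 7.63 in GHRH-KO mice. Its log2 fold change of -0.70 (limma adjusted p = 0.185) became -0.46 without GHRH-KO replicate 5, its lowest array. Tcf7l1 differed by 0.03, and Lef1 was under the filter.

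Of 12 inhibitors and feedback genes of the pathway that passed the filter, some of them Wnt targets themselves, 0 were called. At an unadjusted p under 0.05 there were 0 in either direction, and the median was 0.04. Rnf43, a ligase that removes Frizzled receptors, gave -0.41 with all arrays and -0.02 without GHRH-KO replicate 5, in which it read 6.57 against 7.39 to 7.93 on the other arrays. Znrf3, its relative, differed by 0.33 (adjusted p = 0.348) and by 0.20 without that array. Nkd1 differed by 0.27, or 0.44 without it, and Notum and Sp5 by 0.12 and -0.09. Dkk4 and Wif1, secreted inhibitors under the filter and so outside those 12, gave -0.68 and -0.42. In limma with no filter their unadjusted p was 0.00299 and 0.0149, and their adjusted p 0.1155 and 0.221. Every GHRH-KO value of both genes lay below every control value.

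Other genes of the same zone were split between directions. Of 21 other pericentral genes tested 0 were called by limma (unadjusted p under 0.05 for 3 higher and 3 lower), and the median log2 fold change was 0.01. Cldn2, a claudin of pericentral tight junctions, read 10.62, 10.64 and 10.57 in controls and 10.16, 9.99 and 9.89 in GHRH-KO mice. Its log2 fold change was -0.59 (adjusted p = 0.0640). The gene passed the threshold with array weights (-0.64, adjusted p = 0.0234). In that fit GHRH-KO replicate 6, its lowest array, had the largest weight, 3.346. Slc16a10, an aromatic amino acid transporter, gave 0.70 (adjusted p = 0.154). Cyp2c37 read 6.34, 6.36 and 6.45 in controls and 7.79, 8.23 and 12.18 in GHRH-KO mice. Its log2 fold change of 3.02 (adjusted p = 0.202) was 1.63 without GHRH-KO replicate 6, and was then called (adjusted p = 0.0222). Its close relatives in the Cyp2c family can share probes, so this value is uncertain.

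Periportal genes, from the opposite end of the lobule, also gave 0 of 17 called (unadjusted p under 0.05 for 3 higher and 2 lower), with a median of -0.13. Cdh1, E-cadherin of periportal hepatocytes, read 8.34, 7.27 and 7.34 in controls and 6.08, 5.93 and 7.04 in GHRH-KO mice (log2 fold change -1.30, adjusted p = 0.152). Aldh1b1, a mitochondrial aldehyde dehydrogenase, gave 0.90 (adjusted p = 0.126), and both had groups that did not overlap. Hsd17b13, a lipid droplet enzyme, was at 7.76 in GHRH-KO replicate 4 and at 11.88 to 12.42 on the other 5 arrays (log2 fold change -1.17, or -1.89 without GHRH-KO replicate 5). Ctsc, a lysosomal protease, gave -0.74 and -0.17 without GHRH-KO replicate 5. No test compared the zones with each other.

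Of 14 ammonia and glutamate handling genes tested 0 were called (unadjusted p under 0.05 for 1 higher and 0 lower), with a median of 0.11. The urea cycle gene Cps1, whose enzyme takes up ammonia upstream of Glul, differed by 0.07. Slc25a15, the mitochondrial ornithine carrier, gave 0.38 (adjusted p = 0.186) and Slc38a4, an amino acid transporter, 0.24 (adjusted p = 0.322), both with GHRH-KO values wholly above control values. In the urea cycle Otc and Arg1 differed by 0.13 and 0.08, with overlapping groups. Asl lay wholly below control at -0.20 (adjusted p = 0.421). Ass1, read at 7.80 to 8.92 with overlapping groups, gave -0.20 and -0.05 without GHRH-KO replicate 5, and Nags gave -0.18 and -0.04. Of the 14 genes, 11 had a log2 fold change above 0 and 3 below. Of the same genes, 3 lay wholly above and 1 wholly below control, beside 28.4% of all genes in either direction. Prodh gave 0.24 (adjusted p = 0.487), and Aldh18a1, under the filter, gave -0.58.

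**Figure D4:**
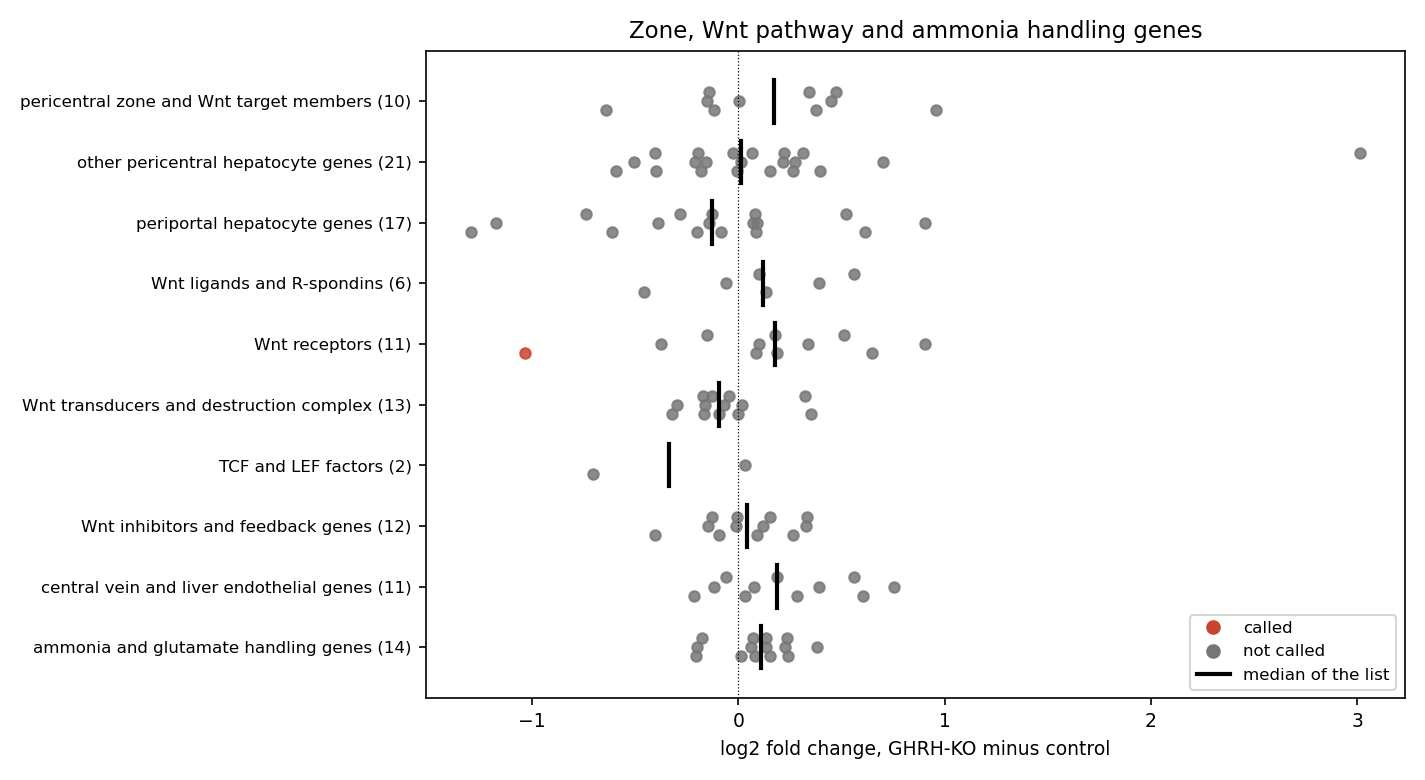
Log2 fold change (GHRH-KO minus control) of each gene tested, by list, with the number of genes tested in parentheses, the median as a bar and called genes in red. Fzd7 at -1.03 is the called gene, Cyp2c37 lies farthest out at 3.02, and the medians run from -0.34 for the 2 TCF and LEF factors to 0.19 for endothelial genes.

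Markers of other cells differed between genotypes in part. The 3 lymphocyte markers tested had a list mean of 5.97 to 6.35 in control and 6.80 to 7.24 in GHRH-KO arrays, with Ccl5 at a log2 fold change of 1.53 (adjusted p = 0.0754) and Ptprc at 0.92 (adjusted p = 0.295). The 3 neutrophil markers tested had list means of 4.83 to 5.01 and 4.98 to 5.86, and the 3 cholangiocyte markers 5.17 to 5.93 and 5.10 to 5.25. Under the filter were 5 further lymphocyte markers (Cd3g, Cd79a, Cd79b, Ms4a1 and Nkg7), 3 neutrophil markers (Mpo, Elane and Ngp) and 2 cholangiocyte markers. The filter ranks the mean over all 6 arrays, so a dim marker passes more easily where 1 group is high. These list means therefore cover only part of each list. Kupffer cell or macrophage and stellate cell or fibroblast means overlapped between genotypes, as given beside Rhbg. Of the remaining lists 1 erythroid gene (Alas2), 1 pancreatic acinar gene (Cela1), 1 adipocyte gene and 2 kidney tubule genes were tested. Alas2 fell by 1.36 (adjusted p = 0.0219) and Cela1 fell by 2.07 (adjusted p = 0.00910), while other markers of these cell types were under the filter. How far other cells contribute to the values of the 10 genes was not tested.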

How the data were processed

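Liver RNA of 3 control and 3 GHRH-KO mice was hybridized to Affymetrix arrays. The authors summarised each probe set by RMA and deposited log2 values, from 2.53 to 14.7, for 45101 probe sets, without the detection filter their methods describe; the software version is not given in the sources used here. After removal of 64 control probe sets, those with the highest mean were tested, as many as the methods report after their filter. In the annotation, 34958 probe sets had 1 gene, 932 several and 9211 none, and 34754 matched the GRCm38.p6 gene table. Columns not used numbered 0. The contrast of GHRH-KO over control came from lmFit and eBayes of limma 3.58.1 (R 4.3.3), after a test on simulated data, and p was adjusted by Benjamini-Hochberg over all probe sets tested; probe sets under the filter take theirs from a fit of all. The probe set with the highest mean stands for a gene. Figures used matplotlib 3.10.9.

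The 10 genes and all lists were chosen with earlier results of these data known. Named genes are the 10 genes, up to 4 genes of each list with the largest absolute log2 fold change, and the 5 genes closest to the member with the largest change. Ctnnb1, Cps1, Wnt9b, Tcf7l1, Nkd1, Notum, Sp5, Otc, Arg1, Asl, Ass1 and Nags were named for their role after their values were seen. Lrp5 was named because its groups did not overlap. Lists were of other pericentral, periportal, Wnt ligand, receptor, transducer, TCF and LEF, inhibitor, endothelial and ammonia handling genes, and of hepatocyte, Kupffer cell, lymphocyte, neutrophil, stellate cell, cholangiocyte, erythroid, acinar, adipocyte and kidney tubule markers. Some genes stand in several lists, among them Wnt2, Wnt9b, Rspo3, Rnf43, Cps1, Ass1, Arg1 and Alb. The counts and medians of such lists are therefore not independent. Alternatives were 2 other filters, 2 scalings, 2 choices of probe set, limma with an intensity trend or array weights, no fold threshold, each array left out, and control replicate 2 with GHRH-KO replicate 5 left out. The number of arrays limits the precision.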

Additional observations from a re-analysis of the deposited data

Results flagged for a closer look

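Control probe sets outside the comparison set 1 array apart. In GHRH-KO replicate 5 the 3′ value exceeded the 5′ value by 5.272 (log2) for Gapdh and by 2.508 for beta-actin, against highest values of 0.675 and 1.314 among the control arrays. Among the 10 genes, by the probe set with the highest mean, Cyp2e1, Cyp1a2, Tbx3 and Lgr5 had their lowest values on that array. Oat, Lect2 and Axin2 had their highest values there. Rnf43, a gene of the wider lists, was also lowest on it. The part of RNA quality in these values was not tested.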

How the results depend on the processing

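None of the 10 genes was called under any alternative. Of 158 values of the 10 genes under alternatives, 153 kept their direction and their side of the threshold, and the smallest adjusted p was 0.0557, for Glul with array weights (0.55). The array weights were uneven, from 0.399 for GHRH-KO replicate 5 to 3.346 for GHRH-KO replicate 6. Values and calls with array weights therefore lean most on GHRH-KO replicate 6. Directions turned for Axin2 without GHRH-KO replicate 6 (0.08), Lgr5 without GHRH-KO replicate 5 (0.08) or without it and control replicate 2 (0.12), and Cyp2e1 without control replicate 2 or GHRH-KO replicate 6 (-0.02 in both). With any 1 array left out the log2 fold changes ran from -0.33 to 0.08 for Axin2, -0.22 to -0.08 for Cyp1a2, -0.02 to 0.03 for Cyp2e1, 0.39 to 0.56 for Glul, 0.22 to 0.41 for Lect2, -0.36 to 0.08 for Lgr5, 0.35 to 0.54 for Oat, 0.70 to 1.27 for Rhbg, 0.24 to 0.51 for Slc1a2 and -0.85 to -0.32 for Tbx3. One alternative left out every probe set whose name ends in _a_at, _s_at or _x_at. Glul and Lect2 then have none, so no value was given for them. The stricter filter tested 15000 probe sets. Of all genes, 98 were called higher and 121 lower. These counts were 248 and 288 with array weights, 36 to 93 and 46 to 95 with any 1 array left out, and 42 and 64 with control replicate 2 and GHRH-KO replicate 5 both left out. With array weights 1 other pericentral gene (Cldn2), 2 periportal genes (Pck1 and Aldh1b1) and 2 receptors (Fzd7 and Fzd1) were called, and 0 to 1 other pericentral genes were called with any 1 array left out. The list medians moved by more than their spread between arrays as follows. With no intensity filter they were 0.03 for TCF and LEF factors, -0.01 for inhibitors and -0.01 for ligands, and with the stricter filter -0.01 for inhibitors and 0.56 for ligands. Centring arrays gave 0.06 for other pericentral genes, 0.09 for inhibitors and -0.05 for transducers. By the probe set with the lowest p they were 0.07 for periportal genes, -0.50 for TCF and LEF factors and -0.02 for inhibitors. With probe sets of those name endings left out the median was -0.01 for inhibitors. Array weights gave 0.21 for ligands and 0.11 for receptors. With control replicate 2 and GHRH-KO replicate 5 both left out they were -0.03 for endothelial genes, -0.05 for other pericentral genes, 0.01 for periportal genes and 0.09 for receptors. With any 1 array left out they ran from 0.00 to 0.30 for endothelial genes, -0.03 to 0.02 for other pericentral genes, -0.15 to -0.03 for periportal genes, -0.03 to 0.11 for inhibitors, 0.11 to 0.27 for receptors and -0.14 to -0.07 for transducers. The cause of these shifts was not tested. No paired analysis was possible because the sources used here do not say which animals came from the same litter.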
